A study of Mus musculus with 3 samples.

Results

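The transmembrane mucins Muc1, Muc3, Muc4, Muc13 and Muc20 were described by their transcript levels in intestinal epithelial cells (IEC) that had been cultured with type-3 innate lymphoid cells (ILC3). The members were a list of 5 named genes, each matched to 1 Ensembl gene through a GRCm38 annotation, out of 35824 genes in the count table. The material was IEC sorted from murine small intestinal organoids (SIO), which are epithelial cultures grown in Matrigel from the crypts of wild-type female CD45.1 C57BL/6 mice. The sample labels gave the mice as 6 to 8 weeks old and the series text allowed up to 10 weeks. All libraries shared 1 condition, 4 days of co-culture with ILC3 sorted from the small intestinal lamina propria of reporter mice, in organoid medium with added IL-2, IL-7 and IL-15. There were 3 SMART-Seq2 libraries, A, B and C, labelled as biological replicates 1, 2 and 3. According to the labels, A and B entered the submitters' final analysis and C did not, and the sources used here gave no reason. The untreated arm of the study (IEC ONLY) was not analysed here, and no value below measures an effect of ILC3. No source used here said whether the replicates came from separate mice, so the spread between libraries may be technical.

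Transmembrane mucins are long, heavily O-glycosylated proteins anchored in the apical membrane, where they form the glycocalyx that covers the microvilli under the secreted mucus. Several carry a short cytoplasmic tail that can bind PDZ or cytoskeletal proteins or be phosphorylated, and some ectodomains carry EGF-like repeats that bring them close to ERBB receptors. In the small intestine, MUC13 and the MUC3 and MUC17 type of mucin are known as the main membrane mucins of enterocytes. Secreted MUC2 from goblet cells forms the mucus gel instead, and is not a membrane mucin.

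Library A held 17946361 counts, B 23142849 and C 28913885, and 11986 to 12964 genes reached 10 counts. A count of 3, taken as the floor of detection, corresponded to 0.105 to 0.164 CPM, the count scaled to the size of the library. All 7 epithelial markers, among them Epcam and Krt8, reached 10 counts in each library and summed to 11080 to 12980 CPM. Ptprc, which marks all leukocytes, had 1 count in A and 0 in B and C. Of the leukocyte list, 6 of 12 genes, Il22, Il17a, Ncr1 and Cd3e among them, were listed at 0 in each library. Thy1, on the same list, had 16 (A), 87 (B) and 3 counts (C). Stromal markers summed to 0.245 to 6.84 CPM, with 5 of 8 listed at 0. Library C stood apart from the others: the median gene differed by 0.32 between A and B on the log2(CPM + 1) scale, by 0.46 between A and C and by 0.52 between B and C.

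Muc13 was by far the most abundant transmembrane mucin transcript in each library, Muc4 and Muc3 were readily detected, and Muc1 and Muc20 were at or near the floor in at least 1 library. Muc13 had 1546 CPM in library A, 1658 in library B and 791 in library C, from 28285, 38040 and 22619 counts. A and B were close and C was below both. Muc13 encodes a short membrane mucin with EGF-like repeats that is made along the whole intestine, and its share of the summed level of the 5 genes per kilobase of transcript was 90.2% (A), 92.3% (B) and 87.4% (C).

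Muc4, a very large mucin whose ectodomain is known to bind ERBB2, had 254 (A), 194 (B) and 104 CPM (C), from 4647, 4457 and 2962 counts. The value in C was below those in A and B, and A was above B. Muc3, which encodes an enterocyte mucin with a cleaved SEA domain, had 62.0 (A), 50.8 (B) and 52.3 CPM (C), from 1134, 1166 and 1495 counts. It was the steadiest of the 5 genes, with C between A and B. Its coefficient of variation over the libraries was 11.0%, that of Muc13 35.4% and that of Muc4 41.2%.

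Muc1, the widely studied signalling mucin of ductal and glandular epithelia, had 2 (A), 87 (B) and 57 counts (C). As CPM these were 0.109 (95% exact Poisson interval 0.0132 to 0.395), 3.79 (3.04 to 4.68) and 1.99 (1.51 to 2.58). Library A was below the floor of 3 counts while the intervals of B and C lay wholly above that of A. Muc20, a mucin known from kidney as a partner of the MET receptor, had 20 counts in A and 1 each in B and C. The levels were 1.09 CPM (0.668 to 1.69) in A, 0.0436 (0.0011 to 0.243) in B and 0.0350 (0.00089 to 0.195) in C, so that A alone was above the floor. Muc1 and Muc20 therefore had their low values in different libraries. The intervals cover counting error only, and reads amplified by PCR without molecular identifiers are not independent molecules.

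**Figure D1:**
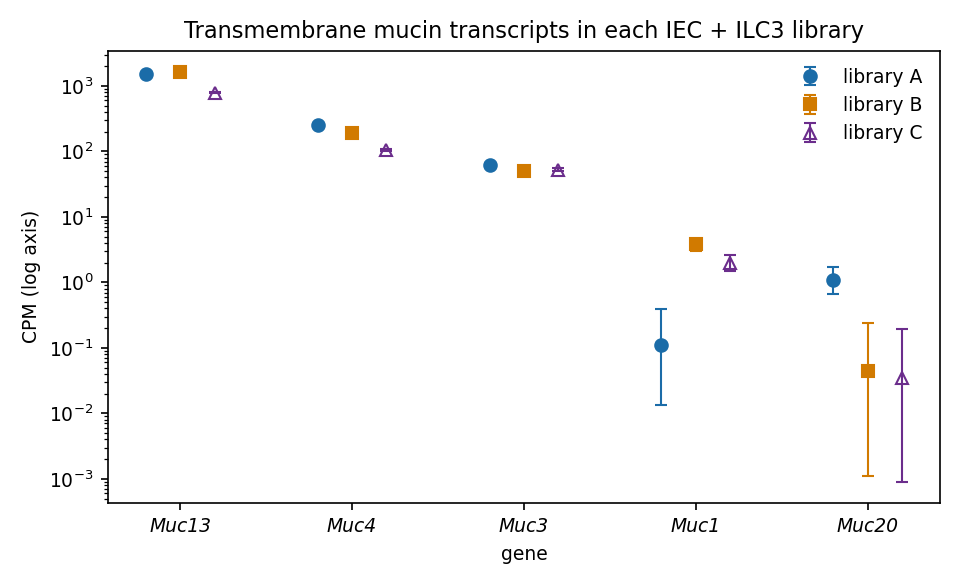
Level of each transmembrane mucin in CPM on a log axis in libraries A (circles), B (squares) and C (open triangles), with 95% exact Poisson intervals, which are hidden by the symbol at high counts. Muc13 sits at 791 to 1658 CPM, Muc4 at 104 to 254 and Muc3 at 50.8 to 62.0, whereas Muc1 is low in A and Muc20 is low in B and C.

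Levels of different genes were compared only per kilobase of the longest coding transcript, since SMART-Seq2 reads cover whole transcripts. These lengths were 2969 bases for Muc13, 1853 for Muc3, 11277 for Muc4, 2242 for Muc1 and 3673 for Muc20. Muc13 then had 448.5 ± 159 CPM per kilobase (SD, n = 3), Muc3 29.7 ± 3.28, Muc4 16.3 ± 6.72, Muc1 0.876 ± 0.821 and Muc20 0.106 ± 0.166. The ranges over the 3 libraries did not overlap between Muc13 and Muc3, between Muc3 and Muc4, or between Muc4 and Muc1. Those of Muc1 and Muc20 overlapped, with Muc1 above Muc20 in 2 of 3 libraries, so these neighbours did not differ beyond their spread. Per kilobase, Muc13 exceeded Muc3 by 15.6 times in A, 20.4 times in B and 9.44 times in C. It exceeded Muc4 by 23.1, 32.4 and 29.0 times. The ratio of Muc13 to Muc4 in C thus lay between those in A and B, whereas the ratio of Muc13 to Muc3 was lowest in C.

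The place of Muc4 rested on its gene model. The annotation holds 8 Muc4 transcripts, and their mean length of 3782.0 bases is far below that of the longest. With the mean length, Muc4 had 67.2 (A), 51.4 (B) and 27.4 (C) CPM per kilobase. Muc3 had 44.1, 36.2 and 37.2 on the same scale, so Muc4 was above Muc3 in A and B and below it in C. With merged exons the order was that of the longest transcript. Muc13 was first under each of the 3 definitions of length.

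**Figure D2:**
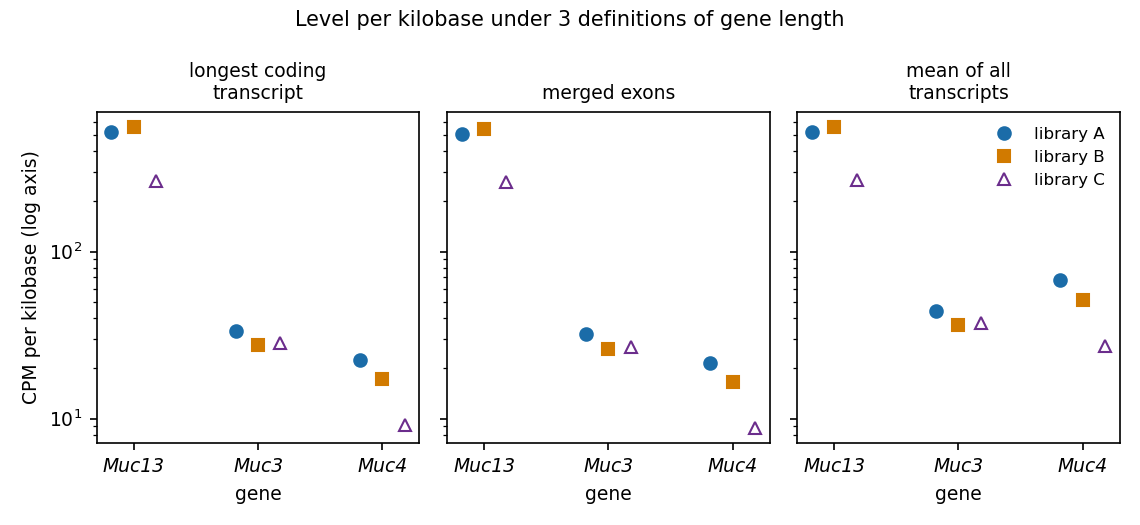
CPM per kilobase on a log axis for Muc13, Muc3 and Muc4 in libraries A, B and C, with gene length taken as the longest coding transcript, the merged exons or the mean of all transcripts. Muc13 is highest in each panel, and Muc4 passes Muc3 in A and B only with the mean length, at 67.2 and 51.4 against 44.1 and 36.2.

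Set against other epithelial genes, Muc13 transcripts were abundant. Per kilobase they reached 0.645 of the level of Epcam, the pan-epithelial adhesion molecule, in A, 0.657 in B and 0.478 in C. They were 3.79, 3.80 and 3.09 times the level of Vil1, the villin gene of the microvillus core. Muc3 was at 0.243, 0.187 and 0.327 of Vil1, and Muc4 at 0.164, 0.117 and 0.106. These ratios placed Muc13 above a microvillus structural gene and Muc3 and Muc4 below it in each library. Muc13 was also above Muc2 per kilobase, by 6.00 times in A, 7.42 in B and 15.4 in C. The Muc2 models in this annotation are partial, with a longest coding transcript of 2926 bases against 7127 bases of merged exons, which limits that ratio.

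Muc4, Muc20 and Muc13 lie on chromosome 16 of GRCm38. Muc4 (ENSMUSG00000079620) spans chr16:32735886-32782391 on the forward strand and Muc20 (ENSMUSG00000035638) chr16:32777419-32797435 on the reverse strand, so that their 3′ ends overlap by 4973 bases. In exons the overlap was 627 bases, 15.6% of the merged exons of Muc20 and 5.3% of those of Muc4. Those bases fall in the longer Muc20 transcript of 3673 bases, and the shorter one of 2299 bases has 0 of them. SMART-Seq2 keeps no strand, so reads from the shared bases cannot be assigned to either gene, and with 1 to 20 counts Muc20 is uncertain. Muc13 (ENSMUSG00000022824, chr16:33794037-33819934, forward) lies 1011.6 kb beyond Muc4.

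**Figure D3:**
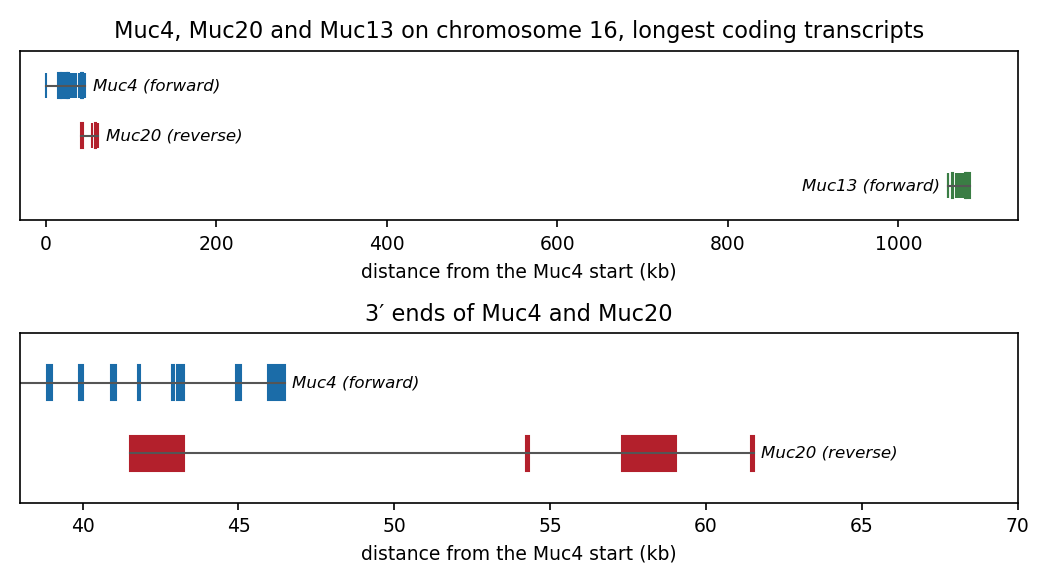
Exons (boxes) of the longest coding transcripts of Muc4, Muc20 and Muc13 by distance in kb from the Muc4 start, with the 3′ ends of Muc4 and Muc20 enlarged in the lower panel. Muc4 and Muc20 run towards each other and overlap by 4973 bases, and Muc13 lies 1011.6 kb beyond Muc4.

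The other members stand alone. Muc1 (ENSMUSG00000042784) occupies chr3:89229057-89233381 on the forward strand with 7 exons in its longest coding transcript. Muc3 (ENSMUSG00000037390) occupies chr5:137134922-137149322 on the reverse strand with 11 exons. Its RefSeq model starts 16.7 kb further upstream, so the Muc3 counts may leave out 5′ exons and its level per kilobase refers to the shorter model. The neighbour Muc3a, 59.5 kb away, is annotated as a separate gene. Its level was 16.9 (A), 18.7 (B) and 17.1 CPM (C), and Muc3 and Muc3a shared 0% of their 31-base words with any other gene. Of the words of Muc13, 4.9% also occurred in another gene, most of them in Gm15657.

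The 250 bases before the RefSeq start of Muc13 and Muc4, the genes that were lower in C by similar amounts, and of Muc1, the gene that differed most between A and B, are shown with the motif matches in capitals (5′ to 3′ on the strand of the gene, RefSeq, GRCm38.p6, all 3 on the forward strand).
Muc13, chr16:33793787-33794036: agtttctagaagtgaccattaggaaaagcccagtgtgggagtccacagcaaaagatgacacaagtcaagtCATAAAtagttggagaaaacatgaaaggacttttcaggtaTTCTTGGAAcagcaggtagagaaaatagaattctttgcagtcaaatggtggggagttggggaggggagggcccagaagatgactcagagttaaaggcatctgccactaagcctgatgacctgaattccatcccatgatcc
Muc4, chr16:32735636-32735885: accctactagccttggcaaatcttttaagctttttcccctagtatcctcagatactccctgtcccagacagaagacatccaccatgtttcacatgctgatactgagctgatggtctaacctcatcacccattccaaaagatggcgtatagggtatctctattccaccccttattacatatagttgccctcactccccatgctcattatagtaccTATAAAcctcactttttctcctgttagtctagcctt
Muc1, chr3:89228806-89229055: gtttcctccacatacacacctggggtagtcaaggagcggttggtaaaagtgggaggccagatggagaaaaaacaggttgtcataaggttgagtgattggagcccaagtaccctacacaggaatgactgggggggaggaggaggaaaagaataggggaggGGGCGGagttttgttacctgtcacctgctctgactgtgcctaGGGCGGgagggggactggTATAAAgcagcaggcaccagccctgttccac

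The capitals mark matches on either strand to 7 short motifs searched for, and no 2 matches overlapped. Muc13 held TTCNNNGAA, the STAT-type motif, as TTCTTGGAA with its first base 140 bases before the start. This motif was in 7.0% of 32851 promoter windows of the same length. It also held TTTATG, a CDX2-type motif present in 10.8% of windows, on the other strand at 180 bases. A second annotated Muc13 start held CAAAGTCCA, an HNF4-type motif found in 0.4% of windows, on the other strand. Muc4 held TATAAA at 36 bases, a TATA box present in 12.4% of windows. Muc1 held TATAAA at 31 bases and GGGCGG, a GC box in 32.7% of windows, at 91 and 49 bases. The windows of Muc3 and Muc20 held none of the 7 motifs, which also included CAGCTG (13.0% of windows) and AGATAA (10.0%). A match is a run of letters and was not tested as a binding site. GC content was 44.8% for Muc13 and 43.6% for Muc4, below the median window of 52.4%, and 54.8% for Muc1.

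Libraries A and B, the pair kept by the study, were set side by side as 1 library against another, with no test. Muc13 was 1.07 times as high in B (95% counting interval 1.06 to 1.09). Muc3 was 1.22 times as high in A (1.12 to 1.33) and Muc4 1.31 times as high in A (1.26 to 1.36). These differences lay within the median difference of 0.32 between A and B for Muc13 and Muc3, at 0.10 and -0.28 (B minus A on the log2(CPM + 1) scale), and slightly outside it for Muc4 at -0.39. Muc1 was 34.7 times as high in B, with an interval of 9.32 to 291, and Muc20 25.1 times as high in A, with an interval of 4.01 to 1040. Both wide intervals come from 1 or 2 counts on the lower side.

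In library C, Muc13 and Muc4 were at about the same fraction of their level in A and B, while Muc3 was nearly level. Fewer cells of a type and less RNA per cell cannot be told apart in such bulk libraries. The values were 791 CPM against 1602 for Muc13 (the mean of A and B), 104 against 224 for Muc4 and 52.3 against 56.4 for Muc3. The log2 fold change was -1.02 (SE 0.30) for Muc13, -1.12 (SE 0.32) for Muc4 and -0.12 (SE 0.31) for Muc3. By edgeR's quasi-likelihood test with Benjamini-Hochberg adjustment over 13604 genes the adjusted p was 0.109, 0.107 and 0.855, so none passed the threshold of 0.1 that the study used. Muc1 had a log2 fold change of 0.03 (SE 1.72, adjusted p = 0.994) and Muc20 one of -3.83 (SE 2.99, adjusted p = 0.468) by the same test. The Muc20 value rested on the 20 counts of library A. With 1 library left out, C minus the other was -0.01 without A and -1.02 without B, with no test. Both are differences on the log2(CPM + 1) scale, which shrinks values near the floor, and are not edgeR fold changes. The test compares 1 library with a pair, with 1 residual degree of freedom, and says nothing of a condition.

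Of the 5 genes, 0 were called by edgeR, where 6.56% of all genes tested were called and 5.2% were called lower. At an unadjusted p under 0.05 there were 2, Muc13 and Muc4, against 22.3% of all genes. The Wald test of DESeq2 called both (adjusted p = 0.00919 for Muc13 and 0.0184 for Muc4), with 13.1% of all genes called. Both genes were also called by edgeR with no filter (13.8% of all genes) and with library totals alone (9.05%). Muc4 alone was called when 10 counts in every library were required (9.17%). Neither was called with DESeq2 size factors (5.21%), with the trend of transcript length removed (4.01%) or with that of GC content removed (2.71%). The calls for Muc13 and Muc4 thus changed with the settings. By CPM, 3 of 5 genes (Muc13, Muc4 and Muc20) were below A and B in C, as were 41.0% of all genes tested, and for Muc20 the counts in B and C were both 1, so that this order reflects the library totals. The median log2 fold change of the 5 genes, -1.02, is the value of Muc13 and describes no shared shift. It counts Muc20, which had 20 counts in A and 1 each in B and C. All genes tested had a median of -0.10, and Muc1 and Muc3 were at 0.03 and -0.12.

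Transcript length moved with the difference between C and the other libraries. The median log2 fold change was 0.11 for genes with a longest coding transcript of up to 2000 bases and -0.08 from 2000 to 4000 bases. It was -0.31 from 4000 to 10000 bases and -0.44 for the 299 genes above 10000, the class of Muc4. Muc13, at 2969 bases, fell in a class whose median was near 0. After the trend with length had been removed, Muc4 had a log2 fold change of -0.80 (adjusted p = 0.211) and Muc13 one of -1.01 (adjusted p = 0.110) by edgeR. The part of length in the level of Muc4 was not tested beyond this.

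**Figure D4:**
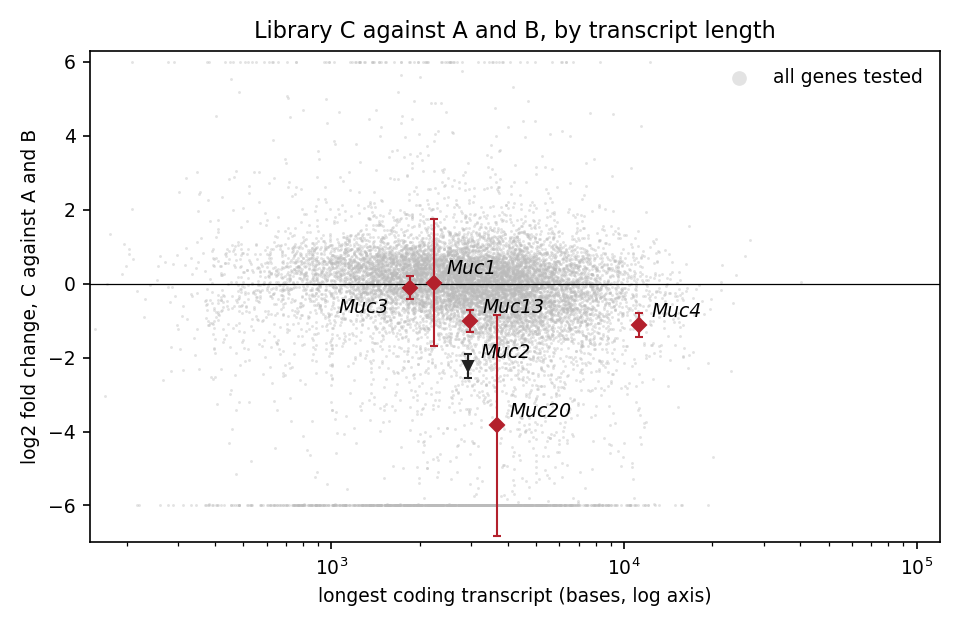
Log2 fold change of library C against A and B by length of the longest coding transcript (log axis) for the tested genes with a known length (grey, values beyond 6 in either direction drawn at 6), the 5 transmembrane mucins (diamonds, bars are SE) and Muc2 (triangle). Muc13 is at -1.02, Muc4 at -1.12 among the longest transcripts, Muc3 at -0.12 and Muc2 at -2.23.

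Muc2, the secreted gel-forming mucin of goblet cells, was called lower in C. It had 254 (A), 220 (B) and 50.5 CPM (C). The log2 fold change by edgeR was -2.23 (SE 0.32, adjusted p = 0.0228). Of 6 secreted mucins in the table, Muc2 alone had at least 10 counts in each library. Muc5ac, Muc5b, Muc19 and Prol1 were listed at 0. The difference in fold change between Muc2 and the membrane mucins was not tested. Of the goblet cell markers, 4 of 8 (Muc2, Fcgbp, Clca1 and Zg16) were called lower in C by edgeR, where 5.2% of all genes were, and the list summed to 2602 (A), 3375 (B) and 2204 CPM (C). The enterocyte list, with 0 of 8 genes called, summed to 5688, 3899 and 5017 CPM, and the tuft cell list, with 5 of 7 genes tested called lower and 0 higher, to 48.7, 80.5 and 7.97 CPM. Of the other goblet cell markers, Agr2 and Spink4 were highest in C, at 586 and 650 CPM. Spdef in C lay between A and B, and Tff3 was lowest in C, at 603 CPM. The part of these cell types in the mucin levels was not tested.

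Among other membrane mucins, Cd164, the endolyn sialomucin, was the highest, at 349.7, 302 and 311 CPM. Muc3a and Cd164 were the 2 of 7 genes in the table with at least 10 counts in each library. Muc15, Muc16 and Emcn were listed at 0, and Mcam had 58 counts in B and 0 in A and C. None of the 3 genes tested was called in C by edgeR, and their median log2 fold change was -0.07. Muc12, Muc17, Muc21 and Muc22 had no row under those names.

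Anchors of the apical membrane were well represented, and their binding to the mucins was not tested. Of 16 genes for cytoskeletal and PDZ anchors of the apical membrane, 12 had at least 10 counts in each library. The highest per kilobase were Cdhr5, a microvillus protocadherin, at 151 ± 44.4 CPM per kilobase (SD, n = 3), Vil1 at 124 ± 32.6 and Slc9a3r1, the PDZ scaffold NHERF1, at 93.2 ± 8.05. In C, 4 of 13 tested were called lower by edgeR and 0 higher, with a median log2 fold change of -0.73 beside -0.10 for all genes tested. They were Ezr, which links membrane proteins to actin (log2 fold change -1.45, adjusted p = 0.0546), the myosin genes Myo1d (-1.31, 0.0772) and Myo7b (-1.23, 0.0813), and the microvillus protocadherin Cdhr2 (-1.08, 0.0982). The ezrin relatives Msn and Rdx, and Pdzk1, were listed at 0. Counts of called genes on this and the later lists are to be read beside the share of all genes called lower, given above.

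The signalling partners of mucin tails and ectodomains were present with at least 10 counts in each library for 10 of 10 genes. Erbb2, the receptor that Muc4 is known to bind, had 145 (A), 146 (B) and 66.3 CPM (C). Met, the receptor linked to Muc20, had 26.6, 17.8 and 18.2 CPM, and Egfr 22.0, 17.5 and 24.3. Erbb2 was lowest in C, as were Muc4 and Erbb3, Ctnnb1, Src, Jup, Gsk3b and Plcg1 of this list. Met, Egfr and Grb2 were not. Of all genes tested, 41.0% were below both A and B in C, and 5.2% were called lower by edgeR. A link between Erbb2 and Muc4 was not tested. By edgeR 3 of 10 were called lower and 0 higher, namely Erbb2 (log2 fold change -1.14, adjusted p = 0.0884), the tyrosine kinase Src (-1.34, 0.0880) and the phospholipase Plcg1 (-1.88, 0.0932). The list had a median of -0.66, beside -0.10 for all genes tested. The highest per kilobase were the junction protein genes Jup and Ctnnb1, at 142 and 122 CPM per kilobase, and Erbb2 at 23.8.

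IL-22 from ILC3 acts on epithelium through IL22RA1 and IL10RB and then STAT3, a route known to raise membrane mucin genes. Il22ra1 had 3.17 (A), 10.9 (B) and 0.175 CPM (C), and was called lower in C by edgeR (log2 fold change -5.28, adjusted p = 0.0787). It was the 1 gene called of 9 tested on this list, whose median was -0.38. Among all genes tested by edgeR, 5.2% were called lower in C and the median was -0.10. Per kilobase Il10rb was the highest, at 45.8 CPM per kilobase, followed by Jak1 at 20.3 and Stat3. Il22ra1 was highest in B, from 58 (A), 249 (B) and 5 counts (C). Muc13 and Muc1 were also highest in B, Muc13 by only 1.07 times over A, and Muc3 and Muc4 were highest in A. The part of this route in the mucin levels was not tested.

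**Figure D5:**
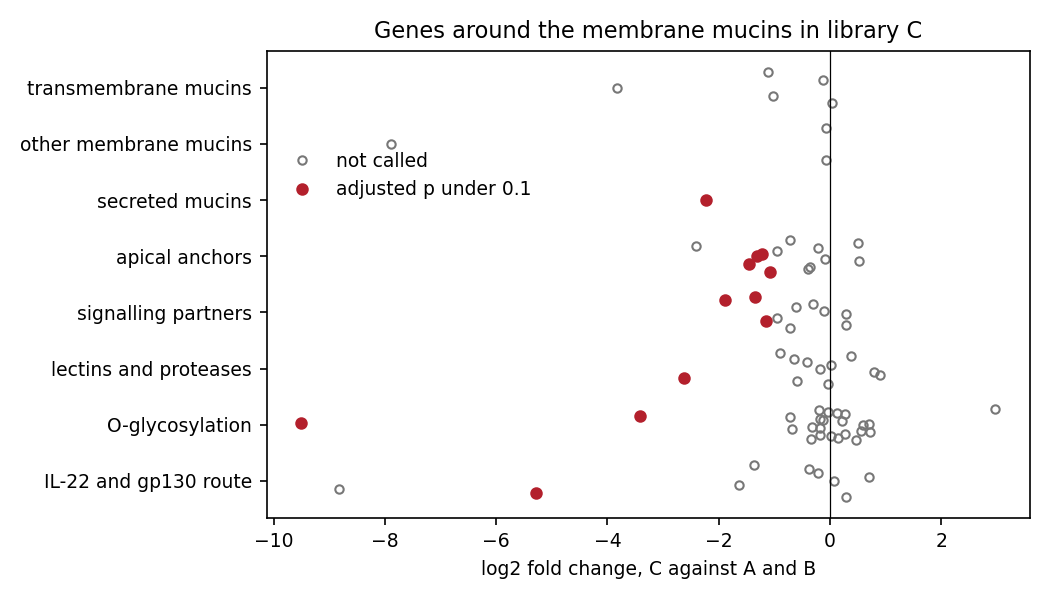
Log2 fold change of library C against A and B for each gene tested of the mucin list and 7 lists of related genes, with genes at an adjusted p under 0.1 filled (fitted values of genes with 0 counts in C, such as Galnt5 and Mcam, depend on the prior count and are no bound). The transmembrane mucins hold 0 filled points, the apical anchors 4, the signalling partners 3 and the secreted mucins 1 (Muc2).

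Genes whose pattern over the 3 libraries was most like that of a member were sought among 107 genes of the fixed lists, by the root mean square difference of centred log2(CPM + 1). With 3 libraries this is a description. For Muc13 the closest was Cdhr2 (0.047), followed by Erbb2 (0.063) and Pdzd3 (0.07). For Muc4 it was Sis, the sucrase-isomaltase gene (0.027), at 661, 509.5 and 261 CPM, followed by the tuft cell marker Avil (0.033) and Src (0.141). For Muc3 it was Chst4 (0.033), followed by Cd164 (0.034) and Galnt12 (0.059). Muc1 and Muc20 had fewer than 10 counts in a library and were not compared.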

How the data were processed

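Estimated counts per Ensembl gene were deposited by the authors, who trimmed reads with Trimmomatic 0.39, quantified them with Salmon 0.14.1 against Ensembl transcripts of GRCm38.p6 with gene sums from tximport. These values were already whole. Of 35824 genes, 35436 received a symbol from GENCODE M21 (GRCm38). Gene models were not compared between that annotation and the Ensembl release the authors used. CPM values used TMM factors (edgeR 4.0.16, R 4.3.3). The groups were taken from the labels, and C was tested against A and B with edgeR's quasi-likelihood test after filterByExpr, with Benjamini-Hochberg adjustment over all genes and a threshold of 0.1. DESeq2 1.42.0, other size factors, filters, lengths and trends with length and GC content were tried. The edgeR procedure was also run on simulated counts with the same mean level in each library, apart from genes changed in C. Those counts held no trend with length or GC content, so that run cannot bear on the calls in C. Members and gene lists were chosen with earlier results of these data known. Genes named are the 5 members, the called genes and the 3 highest per kilobase of each list, the 3 genes most like each member in pattern, and a few others, such as Met, Egfr, Muc3a and genes listed at 0, named after their values were seen. Library totals were 17946361, 23142849 and 28913885, so that 3 counts are 0.164, 0.131 and 0.105 CPM. Promoter sequences are from RefSeq. Protein sequences were not used here, and 1 gene of the leukocyte list is not reported here.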

Additional observations from a re-analysis of the deposited data

How the results depend on the processing

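No paired analysis was possible because the labels give 1 group. Muc13 stayed first in each library under every length definition tried, while 3 of 5 genes kept their place in the order with the mean transcript length or with no length correction. The summed level of the 5 genes was 440.8 to 590.9 CPM per kilobase when each library was left out in turn, and the order held for 5 of 5 genes each time. That sum is mostly Muc13. Muc1 ranged from 0.469 to 1.29 CPM per kilobase and Muc20 from 0.0107 (without replicate 1) to 0.155. Whether Muc4 and Muc13 were called in C changed with the test, the filter and the scaling, as given in the Results beside the share of all genes called. Over all genes 892 were called, against 1740 with the Wald test, 2402 with no filter, 543 with the length trend removed, 368 with the GC trend removed and 276 at a threshold of 0.05. The log2 difference of the summed CPM of the 5 genes, B minus A, was 0.03, and -0.00682 with total counts alone. Muc1 in C turned from 0.03 to -0.10 with the length trend removed. Without replicate 1 or replicate 2 it ranged from -0.68 to 1.43, and Muc3 in C, at -0.12, ranged from -0.24 to 0.040, the positive value without replicate 1. Muc20 in C, at -3.83, was -0.01 without replicate 1 and -1.02 without replicate 2. The values without a replicate are differences on the log2(CPM + 1) scale. They are not edgeR fold changes, so their size is not to be set against 0.03, -0.12 or -3.83, and they carry no test. With DESeq2 size factors, fewer of the apical anchors, signalling partners and O-glycosylation genes were called than with TMM factors. Causes were not tested beyond the fewer or more genes each filter admits. Muc1 in A and Muc20 in B and C had 1 or 2 counts, below the floor, so those levels are imprecise. Muc20 had its 20 counts in A, the library with the fewest total counts, and the part of depth was not tested.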

Other observations

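The enzymes that build O-glycans on mucins were mostly present. Of 28 genes, 21 had at least 10 counts in each library. The highest per kilobase was the sialyltransferase St3gal4, at 251 ± 65.9 CPM per kilobase (SD, n = 3). It was followed by B4galnt2, which makes the Sda type of glycan cap, at 100.4 ± 13.3, and B3gnt3, a core-extending enzyme, at 58.9 ± 11.9. Among all genes tested by edgeR, 5.2% were called lower in C and the median log2 fold change was -0.10. By edgeR's quasi-likelihood test 2 of 24 tested were called lower in C and 0 higher, with a median log2 fold change of -0.01. They were Galnt5, at 1.80 (A), 5.97 (B) and 0 CPM (C), and St3gal1, at 5.14, 14.3 and 0.909 CPM (adjusted p = 0.0757 and 0.0998).

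Of 11 genes for lectins and proteases that bind or cut surface mucins, 11 had at least 10 counts in each library. Lgals2, Lgals4 and Lgals9, which encode galectins, were the highest per kilobase. Lgals4 had 3593, 3999 and 3368 CPM. Among all genes tested by edgeR, 5.2% were called lower in C. By edgeR 1 of 11 was called lower in C and 0 higher, Clca1, a goblet cell protein that can cleave MUC2, at 130 (A), 139 (B) and 21.9 CPM (C), with a log2 fold change of -2.62 (adjusted p = 0.0156).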
